A study of Mus musculus with 6 samples.

Results

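NOTCH receptors and their HES/HEY target genes were examined in cultured bone marrow cells of mice with acute graft-versus-host disease (aGVHD, the attack of transplanted donor immune cells on the recipient's tissues). The 8 genes were the receptors Notch1, Notch2 and Notch3, the ligand Jag2, the transcription factors Hes1, Hey1 and Heyl, and the feedback inhibitor Nrarp. All 8 were found by their Ensembl identifiers among the 49328 genes with a complete line in the expression table. The genes had been chosen from their differences between R and vehicle in these same 6 libraries, so their levels in that comparison are described here and not tested.

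The R libraries came from mesenchymal stromal cells (MSCs) treated in culture with a compound labelled R at 0.5 um, the unit as labelled. The vehicle libraries came from cells given DMSO, the solvent. Cells of both groups were obtained from CB6F1 mice with aGVHD by digestion of whole bone marrow, without prior fractionation, and were cultured with serum and antibiotics in DMEM of high glucose. Total RNA of 3 libraries in each group was sequenced. The sources used here do not give what R is, how long it was applied or whether replicates were separate animals or cultures. The p-values below therefore measure the spread between these libraries, which may be technical.

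NOTCH receptors are membrane proteins that are activated by Jagged or Delta-like ligands on a neighbouring cell. ADAM proteases and then gamma-secretase cleave the bound receptor, and the released intracellular part enters the nucleus and joins RBPJ and a Mastermind protein to switch on target genes. The best known targets are the HES and HEY genes, which encode basic helix-loop-helix repressors, and in bone marrow stroma NOTCH signals are known to restrain bone-forming differentiation and to shape the niche of blood-forming cells.

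Levels are FPKM (fragments per kilobase of exon, scaled to library depth), a length-corrected unit in which genes can be compared with each other. Depth was estimated at 17070000 to 21750000 reads a library. Genes with at least 1 FPKM in at least 3 of the 6 libraries were kept for testing, which left 11862 genes. Markers fitted the MSC label only in part. Stromal markers such as Col1a1 and Itgb1 were abundant, but Lepr, a defining marker of marrow stroma, was at 0.102 to 0.130 FPKM in R, against 0.0332 to 0.220 FPKM in vehicle. The 13 macrophage markers summed to 12679 to 15717 FPKM in R, against 15259 to 20241 FPKM in vehicle. With bulk RNA, fewer cells of a type and less RNA per cell cannot be told apart, and the levels below are those of the mixed culture.

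The plot of each gene by library shows the 8 genes in 3 patterns. The 3 receptors had lower means in R, the 3 HES/HEY factors and Jag2 had higher means in R, and Nrarp was at the limit of detection in both groups.

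**Figure D1:**
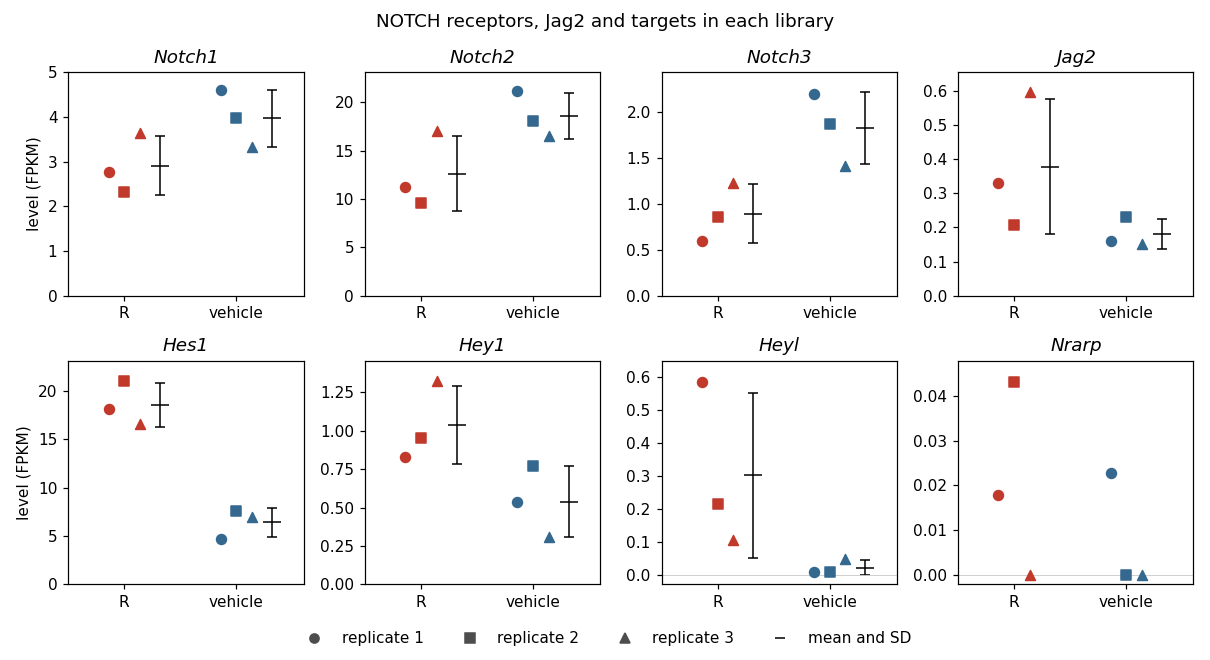
FPKM (y axis, linear, a separate scale for each gene) in the 3 R and 3 vehicle libraries, with point shapes for the replicate numbers and bars for the group mean and SD (n = 3), which are left out for Nrarp. Hes1 lay between 16.6 and 21.0 FPKM in R and between 4.75 and 7.60 FPKM in vehicle, while Notch1 and Notch2 overlapped because R replicate 3 was above vehicle replicate 3.

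Notch2 (ENSMUSG00000027878, chr3:98013527-98150361, plus strand, GRCm38) was the most abundant receptor. It had 11.2, 9.63 and 17.0 FPKM in R replicates 1, 2 and 3, against 21.2, 18.1 and 16.5 FPKM in vehicle replicates 1, 2 and 3. R replicates 1 and 2 were well below every vehicle library, but R replicate 3 was just above vehicle replicate 3, so the groups overlapped. The means were 12.6 ± 3.89 FPKM in R and 18.6 ± 2.39 FPKM in vehicle (SD, n = 3 each), which made the R mean 67.8% of the vehicle mean. On the scale of log2(FPKM + 1), the change of R against vehicle was -0.56 (SE 0.20). This log2 change understates the difference of genes with low FPKM. Without R replicate 3 it was -0.78.

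Notch1 (ENSMUSG00000026923, chr2:26457903-26516663, minus strand), the receptor best known for its role in T cell development, had 2.77, 2.33 and 3.64 FPKM in R, against 4.61, 3.97 and 3.33 FPKM in vehicle. Its pattern over the libraries was that of Notch2, with R replicate 3 above vehicle replicate 3. The means were 2.91 ± 0.670 FPKM in R and 3.97 ± 0.639 FPKM in vehicle (SD, n = 3 each; log2 change -0.35, SE 0.16). A transcript on the opposite strand, 0610009E02Rik, overlaps the 3' end of Notch1 and reached at most 0.474 FPKM, and the sources used here do not give the strandedness of the libraries.

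Notch3 (ENSMUSG00000038146, chr17:32120820-32166852, minus strand), a receptor known from vascular smooth muscle cells and pericytes, had 0.594, 0.857 and 1.23 FPKM in R, against 2.19, 1.87 and 1.42 FPKM in vehicle. Every R library was below every vehicle library, though R replicate 3 and vehicle replicate 3 again came closest. The means were 0.894 ± 0.320 FPKM in R and 1.83 ± 0.390 FPKM in vehicle (SD, n = 3 each), and the log2 change was -0.58 (SE 0.17). Among all kept genes, 15.5% had every R library below every vehicle library, as Notch3 did. The antisense transcript Gm17276 overlaps Notch3 and reached at most 0.0421 FPKM. Notch3 passed the filter on low values through the 3 vehicle libraries and R replicate 3.

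The order of the receptors, Notch2 over Notch1 over Notch3, was the same in all 6 libraries, and the levels of these 3 did not overlap. Notch4, the fourth mouse receptor, was not kept. It had 0.850, 0.586 and 0.460 FPKM in R, against 0.174, 0.212 and 0.998 FPKM in vehicle. Notch4 therefore overlapped between the groups, and it was above Notch3 in R replicate 1. Notch2 made up 73.6% ± 2.27 of the summed FPKM of the 4 receptors in R and 74.8% ± 0.536 in vehicle (SD, n = 3 each). The sum itself was 17.1 ± 4.69 FPKM in R and 24.9 ± 3.03 FPKM in vehicle, with R replicate 3 at 22.4 FPKM and vehicle replicate 3 at 22.3 FPKM. Notch1 made up 17.2% ± 0.827 of it in R and 15.9% ± 0.840 in vehicle, and Notch3 5.25% ± 1.29 in R and 7.29% ± 0.811 in vehicle.

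The promoter windows of Notch1, Notch2 and Notch3 are shown because all 3 receptors had lower means in R. Each window holds 300 bases, 250 before and 50 after the gene's start in RefSeq (GRCm38.p6), written 5' to 3' on the strand of the gene. Capitals mark CACNAG on either strand, the N-box that HES proteins are known to bind. The windows are chr2:26503773-26504072 for Notch1 (minus strand), chr3:98013288-98013587 for Notch2 (plus strand) and chr17:32166841-32167140 for Notch3 (minus strand). For Notch1 the RefSeq start lies inside the gene as given above.
Notch1: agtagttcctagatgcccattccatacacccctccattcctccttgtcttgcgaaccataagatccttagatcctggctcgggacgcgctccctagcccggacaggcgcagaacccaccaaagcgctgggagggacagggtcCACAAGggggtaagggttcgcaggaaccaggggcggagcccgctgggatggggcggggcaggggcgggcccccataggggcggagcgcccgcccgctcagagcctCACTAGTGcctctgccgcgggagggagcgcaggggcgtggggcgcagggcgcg
Notch2: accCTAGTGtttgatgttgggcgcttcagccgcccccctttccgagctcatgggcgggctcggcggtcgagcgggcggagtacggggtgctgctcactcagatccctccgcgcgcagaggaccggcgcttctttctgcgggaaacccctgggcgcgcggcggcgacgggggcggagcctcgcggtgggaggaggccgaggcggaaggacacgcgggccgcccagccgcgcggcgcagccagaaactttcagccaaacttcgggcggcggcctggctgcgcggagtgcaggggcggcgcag
Notch3: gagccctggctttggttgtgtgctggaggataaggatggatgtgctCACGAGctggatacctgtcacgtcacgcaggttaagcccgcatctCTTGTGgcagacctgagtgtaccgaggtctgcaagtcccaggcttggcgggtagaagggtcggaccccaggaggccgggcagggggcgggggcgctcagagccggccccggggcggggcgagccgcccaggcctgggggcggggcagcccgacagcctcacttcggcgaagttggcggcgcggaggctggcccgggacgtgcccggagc

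Windows were found for 5 of the 8 genes, and Hes1, Hey1 and Heyl had none. CACNAG matched at 3 places in the Notch1 window, 2 of them overlapping across the start site, at 1 place in the Notch2 window, at 2 places in the Notch3 window and at 2 places in the Nrarp window. The Jag2 window held no match. Of all 32851 windows in the table, 42.5% held at least 1 match, so a match is common. The core of the RBPJ site, TGGGAA, occurred in none of the 5 windows and in 25.6% of all windows. A match is a run of letters and not a measured binding site, and these windows leave out distal elements. TTCNNNGAA, the core of a STAT site, occurred once, in Notch3 at bases 2 to 10 after the start, and in 8.30% of all windows. The core of the interferon-stimulated response element, on either strand, occurred in none of the 5 and in 3.44% of all. The windows were rich in G and C, with 68.3% in Notch1, 73.0% in Notch2 and 70.0% in Notch3, against a median of 52.7% over all windows.

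Jag2 (ENSMUSG00000002799, chr12:112907819-112929776, minus strand), a transmembrane ligand of the receptors, was low. It had 0.330, 0.208 and 0.596 FPKM in R, against 0.160, 0.230 and 0.151 FPKM in vehicle. R replicates 1 and 3 were above all vehicle libraries, but R replicate 2 was below vehicle replicate 2. These levels rested on 50, 26 and 75 estimated reads in R, against 19, 30 and 21 in vehicle. Summed over libraries and divided by depth, the R to vehicle ratio of reads was 2.08, with an exact 95% interval of 1.56 to 2.81 that covers counting error only and leaves out the spread between libraries. Jag2 was not kept for testing.

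Jag1, the other Jagged ligand, was the ligand with the highest level, and its R libraries were uneven. It had 9.83, 3.178 and 4.74 FPKM in R, against 3.37, 3.178 and 3.75 FPKM in vehicle. R replicate 1 was far above all others, and R replicate 2 was as low as the lowest vehicle library (log2 change 0.53, SE 0.31, limma adjusted p = 0.362). The log2 change of Jag1 was 0.15 without R replicate 1 and 0.83 without R replicate 2. Among the Delta-like ligands, Dll1 had 0.0923 to 0.144 FPKM in R, against 0.0126 to 0.0417 FPKM in vehicle. Dll4 had 0.0577 to 0.201 FPKM in R, against 0.0389 to 0.0761 FPKM in vehicle, and Dll3 was listed at 0 in every library.

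Hes1 (ENSMUSG00000022528, chr16:30064384-30067796, plus strand), the repressor that is the most widely used readout of NOTCH signalling and that other signals also induce, had the largest log2 change of the 8 genes at a pseudocount of 1 (at 0.1, Heyl and Hes1 both had 1.54). It had 18.1, 21.0 and 16.6 FPKM in R, against 4.75, 7.60 and 6.97 FPKM in vehicle. All R libraries were above all vehicle libraries with a wide gap between the groups. In estimated reads this was 803, 770 and 610 in R, against 165, 290 and 284 in vehicle. The means were 18.6 ± 2.26 FPKM in R and 6.44 ± 1.498 FPKM in vehicle (SD, n = 3 each), a ratio of 2.89, and the log2 change was 1.41 (SE 0.17). Hes1 had the 37th highest log2 change of the 11862 kept genes. In the opposite direction, the receptors stood within the lower range, with 4.91% of kept genes below Notch3, 5.29% below Notch2 and 11.04% below Notch1.

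Of the 4 genes that were kept, 1 (Hes1) passed the adjusted p of 0.05 and was higher in R. Without R replicate 3, Notch2 also passed, with lower levels in R. Among all kept genes, 6.82% passed it, 2.39% with higher and 4.43% with lower levels in R. The genes were selected on this comparison, so nothing is read from the count. The log2 change of Hes1 ranged from 1.05 to 1.54 over the 15 alternative settings that were tried.

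Hey1 (ENSMUSG00000040289, chr3:8663359-8667256, minus strand), a repressor best known from heart and blood vessel development, had 0.831, 0.954 and 1.32 FPKM in R, against 0.538, 0.768 and 0.306 FPKM in vehicle. Every R library was above every vehicle library, although R replicate 1 and vehicle replicate 2 were close. The reads were 59, 56 and 78 in R, against 30, 47 and 20 in vehicle, for a ratio per depth of 1.92 (exact 95% interval 1.498 to 2.48, counting error only). The means were 1.04 ± 0.256 FPKM in R and 0.538 ± 0.231 FPKM in vehicle (SD, n = 3 each). Hey1 was not kept, since only R replicate 3 was above 1 FPKM.

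Heyl (ENSMUSG00000032744, chr4:123233556-123249875, plus strand), a HEY factor known as a target of Notch3 in vascular smooth muscle, was barely detected in vehicle. It had 0.585, 0.218 and 0.108 FPKM in R, against 0.0115, 0.0104 and 0.0489 FPKM in vehicle. All R libraries were above all vehicle libraries, and R replicate 1 held most of the R signal. The reads were 65, 20 and 10 in R, against 1, 1 and 5 in vehicle. The ratio of reads per depth was 13.1 (exact 95% interval 6.12 to 33.5, counting error only), and without R replicate 1 it was 6.64. Hey1 and Heyl, both listed above 0 but not kept, had every R library above every vehicle library, as did 5.20% of all such genes. Hes1 did the same among kept genes, as did 13.9% of all kept genes.

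Of 10 markers of smooth muscle cells and pericytes, 6 were highest in R replicate 1, as Heyl was, and 5 had every R library above every vehicle library. Among the 5 kept markers 4 had this separation, as did 13.9% of all kept genes. The share of all genes that were highest in R replicate 1 was not computed. Mcam, an adhesion molecule of pericytes and endothelial cells, had 15.4, 4.23 and 3.62 FPKM in R, against 1.94, 1.18 and 0.806 FPKM in vehicle. Cspg4, which encodes the pericyte proteoglycan NG2, had 5.50, 1.74 and 1.82 FPKM in R, against 0.290, 0.550 and 0.247 FPKM in vehicle. Both genes were highest in R replicate 1. All 5 kept markers had a positive log2 change, against 5844 of the 11862 kept genes. Of these 5, Cspg4 (log2 change 1.44, SE 0.33, limma adjusted p = 0.0471) and Tagln (0.97, SE 0.22, adjusted p = 0.0460) passed the threshold. Among all kept genes, 2.39% passed it with higher levels in R. Cspg4 was kept through the 3 R libraries alone, and Tagln through these and vehicle replicate 2. Being kept thus depended in part on high levels in R, so nothing is read from the counts of kept markers. Acta2 had 411 to 734 FPKM in R, against 127 to 406 FPKM in vehicle, and both Acta2 and Tagln were highest in R replicate 2. Abcc9, a pericyte marker that was not kept, ran the other way, with 0.0494, 0.0465 and 0.0198 FPKM in R, against 0.434, 0.108 and 0.0477 FPKM in vehicle. The list summed to 424 to 757 FPKM in R, against 135 to 421 FPKM in vehicle, and most of this sum was Acta2 in every library. Of the defining markers, Kcnj8 was at 0 in 4 of the 6 libraries and Rgs5 had at most 0.212 FPKM. Notch3, which is also known from these cells, was lower in R and lowest in R replicate 1. The part of these cells in the Heyl and Notch3 levels was not tested.

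**Figure D2:**
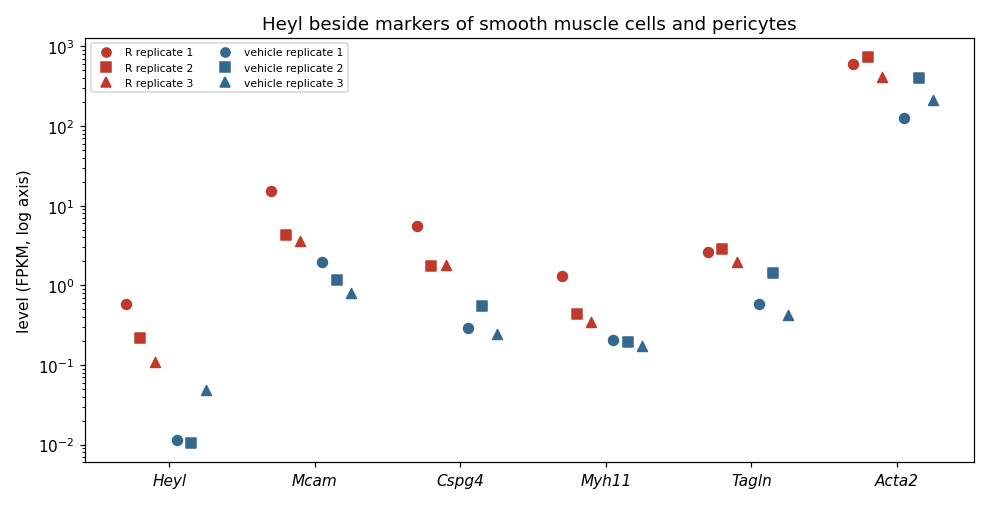
FPKM (log y axis) of Heyl and 5 markers of smooth muscle cells and pericytes in each library, R in red left of vehicle in blue, with point shapes for the replicate numbers. The 5 are those of the 10 markers with every R library above every vehicle library, and the rest are not shown. Heyl, Mcam, Cspg4 and Myh11 were all highest in R replicate 1, at 0.585, 15.4, 5.50 and 1.30 FPKM.

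Endothelial markers, the other vascular list, were low. They summed to 3.90 to 7.88 FPKM in R, against 2.62 to 3.45 FPKM in vehicle, and 6 of the 9 with a value were highest in R replicate 1. Only Kdr and Flt1 had lower means in R, at 0.406 and 0.153 FPKM, against 0.604 and 0.286 FPKM in vehicle, and both overlapped between the groups. Cdh5, the endothelial cadherin and the only kept marker of the list, had 3.39, 1.08 and 1.95 FPKM in R, against 0.976, 0.419 and 0.761 FPKM in vehicle. It was kept through the 3 R libraries alone. Markers of T and NK cells, in which Notch1 is also known, summed to 2.61 to 7.25 FPKM in R, against 7.13 to 13.1 FPKM in vehicle, with Ncr1 at 0 in every library. Of the 3 kept, 2 had every R library below every vehicle library, as did 15.5% of all kept genes. Cd4 ran the other way, with 4.25, 1.43 and 1.58 FPKM in R, against 0.974, 1.27 and 0.942 FPKM in vehicle. Of these 3, 1 (Nkg7) passed the threshold with lower levels in R (limma adjusted p = 0.00789), as did 4.43% of all kept genes. Nkg7 was kept through the 3 vehicle libraries alone, so nothing is read from this count. Of the 13 macrophage markers, all kept, 12 had a negative log2 change, against 6018 of the 11862 kept genes. For 9 of the 13 every R library was below every vehicle library, as for 15.5% of all kept genes. The threshold was passed by 2, Itgam and Aif1, with lower levels in R, as it was by 4.43% of all kept genes. Of the 11 kept stromal markers, 4 had every R library above every vehicle library, as did 13.9% of all kept genes. In 1 (Ly6a) every R library was below, as in 15.5% of all kept genes. Ly6a had 23.0 ± 9.17 FPKM in R and 141 ± 59.3 FPKM in vehicle (SD, n = 3 each). It alone of the 11 passed the threshold (log2 change -2.56, SE 0.41, limma adjusted p = 0.0148). The part of any of these cells in the receptor levels was not tested.

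Nrarp (ENSMUSG00000078202, chr2:25180758-25183339, plus strand), which encodes a small ankyrin protein that is induced by NOTCH and then inhibits it, had almost no reads. The reads were 1, 2 and 0 in R, against 1, 0 and 0 in vehicle. At these depths 3 reads correspond to 0.0534 to 0.0681 FPKM, and every library was below that limit. A difference in Nrarp was therefore not detectable at this depth, and no fold is given.

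The HES/HEY factors differed widely in level. Hes1 was 12.5 to 22.0 times as abundant as Hey1 in the R libraries and 8.82 to 22.8 times in the vehicle libraries, ranges that overlap. Relative to the main receptor, Hes1 was 1.59 ± 0.605 times the level of Notch2 in R and 0.355 ± 0.114 times in vehicle (SD, n = 3 each). The lowest R library had a Hes1 to Notch2 ratio of 0.974 and the highest vehicle library one of 0.421. Within the R group, replicate 3 had the lowest Hes1 and the highest Notch1, Notch2, Notch3, Jag2 and Hey1. Within vehicle, Notch1, Notch2 and Notch3 were highest in replicate 1 and lowest in replicate 3, Notch4 had the opposite order, and Hes1 was lowest in replicate 1.

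Gene length moved with the receptor levels. The receptor genes have long transcripts, with summed exon lengths of 14232 bases for Notch1, 10782 bases for Notch2 and 8089 bases for Notch3, against a median of 4121 bases over kept genes. The 1898 kept genes of 8000 bases or more had a median log2 deviation from the 6-library mean of -0.04, -0.16 and 0.11 in R replicates 1, 2 and 3. In vehicle replicates 1, 2 and 3 it was 0.07, 0.04 and -0.01. Within each group, long genes as a whole thus had the same order of libraries as Notch1 and Notch2. The part of gene length in the receptor levels was not tested beyond the following values. Centred on genes of like length, an alternative chosen after seeing the data, the log2 changes were -0.27 for Notch1, -0.49 for Notch2, -0.54 for Notch3 and 1.38 for Hes1.

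**Figure D3:**
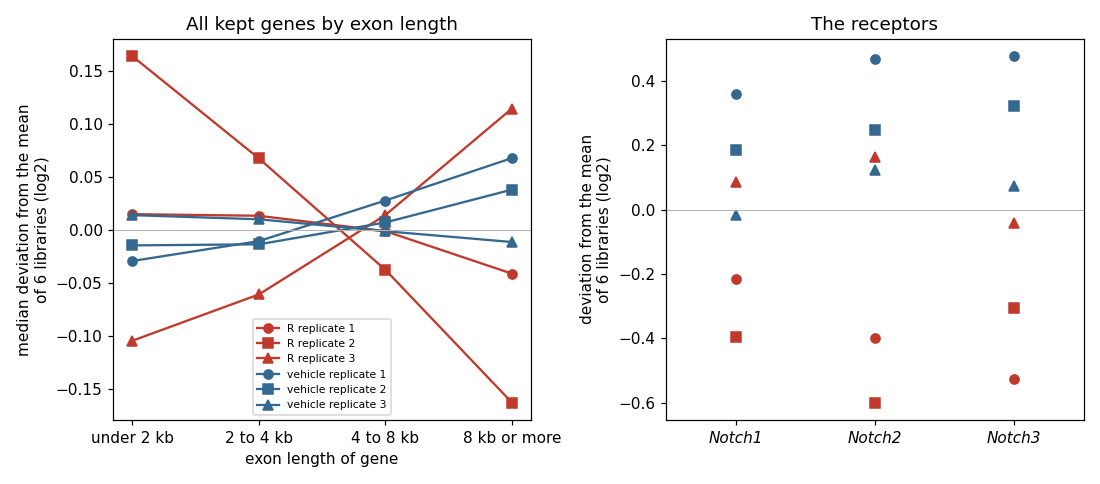
Left, the median log2 deviation of kept genes from their 6-library mean (y axis) in 4 classes of exon length (x axis), 1 line per library, with R in red and vehicle in blue; right, the deviations of the 3 receptors in each library. Genes of 8 kb or more were highest in R replicate 3 (0.11) and lowest in R replicate 2 (-0.16), while the receptors spread over a wider range.

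The other genes of the pathway were described from a list of 90, of which 67 were kept. Of these 67, none passed limma's adjusted p of 0.05 with higher levels in R, 1 (Kat2b) passed with lower levels and 66 did not pass. Among all kept genes, 6.82% passed. At an unadjusted p of at most 0.05 there were 9 with higher and 6 with lower levels in R, or 22.4% of the 67, against 24.0% of all kept genes. The log2 change was positive for 33 and negative for 34, with a median of 0.00 beside 0.00 over all kept genes.

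**Figure D4:**
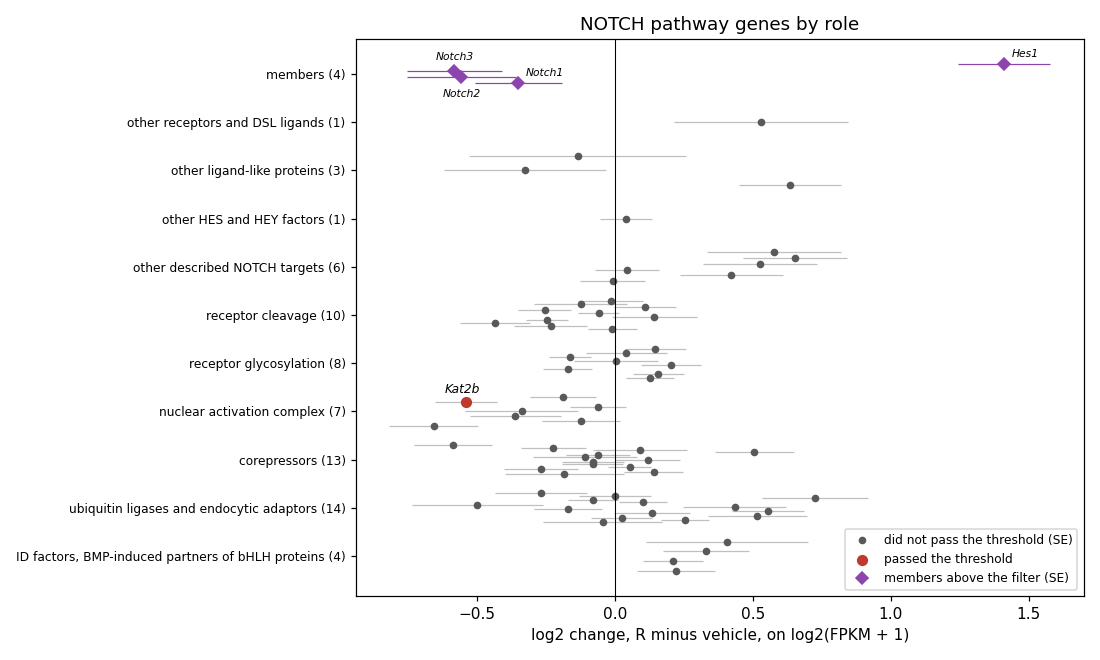
Log2 change, R minus vehicle on log2(FPKM + 1) (x axis), with SE bars, of the kept genes in each role (y axis, number of genes in brackets). Hes1 stands at 1.41, to the right of all other pathway genes, the receptors lie between -0.58 and -0.35, and Kat2b at -0.54 is the only other gene past the threshold.

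The receptor fragment joins the nuclear activation complex on DNA. Of the 7 kept genes of this list, 1 passed the threshold with lower levels in R, as did 4.43% of all kept genes. The log2 change was negative for all 7, against 6018 of the 11862 kept genes, with a median of -0.34. Kat2b, a histone acetyltransferase that acts as a coactivator, had 6.58, 6.16 and 7.74 FPKM in R, against 11.5, 9.61 and 9.97 FPKM in vehicle. All R libraries were below all vehicle libraries (log2 change -0.54, SE 0.11, limma adjusted p = 0.0356). The call was lost with no filter on low values (adjusted p = 0.0909) and when any library but R replicate 3 was left out, with adjusted p of 0.0588 without vehicle replicate 3 to 0.133 without vehicle replicate 1.

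Rbpj, the DNA-binding partner of every NOTCH receptor, had 7.11, 8.07 and 9.98 FPKM in R, against 16.6, 13.5 and 11.4 FPKM in vehicle. The groups did not overlap, but the difference did not pass the threshold (log2 change -0.66, SE 0.16, limma adjusted p = 0.0577). It passed without vehicle replicate 3 (adjusted p = 0.0404), with a stricter filter (0.0455) and when centred on genes of like length (0.0405). It did not pass with no filter on low values (0.143) or when any other library was left out. There the adjusted p ran from 0.0596 without R replicate 3 to 0.174 without vehicle replicate 1. Ep300, another acetyltransferase, had a log2 change of -0.34 (SE 0.21, adjusted p = 0.371) and overlapped between the groups. Kat2a, the close relative of Kat2b, had 15.9 to 18.9 FPKM in R, against 17.1 to 20.2 FPKM in vehicle (adjusted p = 0.771).

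The genes for receptor cleavage were abundant and none of the 10 passed the threshold. Of these, 8 had a negative log2 change, with a median of -0.09. Adam10, the protease of the first cleavage, had 43.8 ± 7.32 FPKM in R and 51.2 ± 3.02 FPKM in vehicle (SD, n = 3 each; limma adjusted p = 0.342). The gamma-secretase subunits Ncstn (44.5 ± 1.54 FPKM in R and 46.4 ± 0.873 FPKM in vehicle) and Psenen (43.6 ± 6.10 FPKM in R and 43.9 ± 3.06 FPKM in vehicle) overlapped between the groups. Of the 8 genes that glycosylate the receptors, none passed either, and the median log2 change was 0.08. Lfng, a fringe enzyme that alters which ligands a receptor answers, had 46.2, 46.6 and 44.9 FPKM in R, against 53.1, 52.6 and 48.9 FPKM in vehicle. Its groups did not overlap, but the difference was small and did not pass the threshold (log2 change -0.16, SE 0.08, adjusted p = 0.250). Rfng (0.15, adjusted p = 0.479) and Poglut1 (0.16, adjusted p = 0.354) overlapped.

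None of the 13 corepressors passed the threshold, and their median log2 change was -0.08. The most abundant, Ctbp1, had 55.5 ± 2.59 FPKM in R and 53.4 ± 1.71 FPKM in vehicle (SD, n = 3 each; limma adjusted p = 0.738), and Hdac1 (log2 change -0.08, adjusted p = 0.724) also overlapped. None of the 14 kept ubiquitin ligases and endocytic adaptors passed, with a median of 0.06. Epn1, an endocytic adaptor, had a log2 change of 0.02 (adjusted p = 0.926), Nedd4, a ubiquitin ligase, one of 0.43 (0.216) and Dtx3 one of -0.08 (0.655). Numbl, which encodes a relative of the NOTCH inhibitor NUMB and was picked after its values were seen, had 5.51, 6.94 and 5.92 FPKM in R, against 3.24, 4.50 and 3.84 FPKM in vehicle. All R libraries were above all vehicle libraries, with an adjusted p just over the threshold (log2 change 0.55, SE 0.13, adjusted p = 0.0502). It passed with the stricter filter (0.0465), equal medians (0.0429) and quantile normalization (0.0437). It did not pass with no filter on low values (0.130) or when any 1 library was left out. There the adjusted p ran from 0.0691 without vehicle replicate 2 to 0.166 without vehicle replicate 1.

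The remaining HES and HEY genes were low or overlapped between the groups. Hes6, which is known to oppose Hes1, was the only other kept HES or HEY gene and had 13.7, 16.3 and 13.96 FPKM in R, against 14.8, 14.2 and 13.5 FPKM in vehicle. Its groups overlapped (log2 change 0.04, SE 0.09, limma adjusted p = 0.844). Hes1 was thus above Hes6 in every R library and below it in every vehicle library. Hes2, Hes3, Hes7 and Hey2 had at most 0.214 FPKM in any library, and Hes5 and Helt were listed at 0.

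Of 11 other genes described as NOTCH targets, 6 were kept and none of these passed the threshold. The log2 change was positive for 5 of the 6, against 5844 of the 11862 kept genes, with a median of 0.47. Il2ra, the interleukin-2 receptor chain of activated T cells and not kept, was lower in every R library, at no more than 0.0194 FPKM in R, against at least 0.0613 FPKM in vehicle. Pdgfrb, the PDGF receptor of stromal and mural cells, had 40.7, 58.9 and 63.5 FPKM in R, against 27.9, 37.3 and 36.5 FPKM in vehicle. Its groups did not overlap (log2 change 0.65, SE 0.19, limma adjusted p = 0.0880), and without R replicate 1 it passed the threshold (0.84, adjusted p = 0.0394). With any other library left out it did not pass (adjusted p of 0.112 to 0.270). Ccnd1, which encodes cyclin D1, had 132 ± 31.0 FPKM in R and 96.4 ± 11.9 FPKM in vehicle (SD, n = 3 each; adjusted p = 0.229). Cdkn1a, which encodes the cell cycle inhibitor p21, had 78.4 ± 6.17 FPKM in R and 76.2 ± 9.66 FPKM in vehicle (adjusted p = 0.865).

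The ID genes, which encode partners of helix-loop-helix proteins that BMP signals induce, were all kept and all had positive log2 changes, with a median of 0.27. None of the 4 passed the threshold. Id3 had 266 ± 40.4 FPKM in R and 212 ± 32.3 FPKM in vehicle, Id2 had 143 ± 14.9 FPKM in R and 123 ± 9.59 FPKM in vehicle, and Id1 had 110 ± 17.7 FPKM in R and 94.4 ± 11.6 FPKM in vehicle (SD, n = 3 each). Among ligand-like proteins, Dlk2 (log2 change 0.63, limma adjusted p = 0.0897), Mfap2 (-0.33, 0.556) and Ccn3 (-0.13, 0.880) were kept and did not pass. Dlk2 passed without R replicate 1 (0.82, adjusted p = 0.0438), and Mfap2 ranged from -0.61 without vehicle replicate 3 to -0.028 without vehicle replicate 2.

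Some genes followed the members closely over the 6 libraries. For Notch2 the nearest kept genes were Nsd1, Ankfy1 and Ep400, with Pearson's r of 0.998, 0.997 and 0.997 in log2(FPKM + 1). For Hes1 they were P3h4 (0.998), Nr2f6 (0.997) and Zfp574 (0.996). P3h4, which encodes a collagen-modifying protein, had 63.1 ± 6.47 FPKM in R and 30.2 ± 5.07 FPKM in vehicle (SD, n = 3 each). For Jag2 they were Csnk2a1 (0.996), Cdsn (0.993) and Tbc1d12 (0.992), and Nrarp had too few reads for such a ranking. These r are descriptions over 6 libraries that share the 2 groups and, for Notch2, the length pattern. The 234 kept genes with an r of at least 0.95 to Notch2, itself included, had a median exon length of 8718 bases, and the 223 such genes for Hes1 one of 3721 bases.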

How the data were processed

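Total RNA of 6 libraries was sequenced. The authors deposited 1 table of FPKM for all genes and samples, and per the submitters' processing notes edgeR 3.18.1 was applied and reads were placed on GRCm38 (mm10). The sources used here do not give the aligner, read counter, annotation or strandedness. Symbols, coordinates and exon lengths came from GENCODE M21, which named 49281 of the 49328 identifiers, and promoter windows from RefSeq. The last line of the table broke off after 10 characters and was left out.

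Groups and replicate numbers came from the sample titles. Values were analysed as log2(FPKM + 1) with limma 3.58.1 in R 4.3.3 (linear model of the groups, empirical Bayes with a variance trend, two-sided). Benjamini-Hochberg adjustment ran over all 11862 kept genes, with a threshold of 0.05. The test was also run on simulated reads drawn around the vehicle means, with the same spread setting for all genes. These lack the pattern of gene length between libraries, so the run is no check under the conditions of these data. Low FPKM times exon length gave whole reads (within 0.02) for 98.3% to 98.4% of values, from which depth and reads were estimated, and read intervals are exact binomial intervals on the sums. Such intervals cover counting error only.

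The 8 genes and all lists were chosen with earlier results of these data known. Named beside the members were pathway genes past the threshold, up to 3 further kept genes per list with the highest mean FPKM, and the receptor, ligand, HES and HEY genes that were not kept. Of the genes this rule takes, 1 is not reported here. For the most abundant member of each role, the 3 kept genes with the highest r were named, without predicted gene models. For markers the rule took up to 3 per list with the highest mean FPKM, and further markers were picked once their values were known. A set of 15 alternatives was tried, among them pseudocounts of 0.1 and 5, a stricter filter of 5 FPKM, no filter, other scalings and leaving out each library.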

Additional observations from a re-analysis of the deposited data

How the results depend on the processing

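All 8 members kept the sign of their log2 change under every alternative that gave a value. Changing the filter, the variance trend or the replicate block leaves this value as it is, so these alternatives could not turn it. The members were also chosen on this comparison, and for Nrarp, with 3 reads in R and 1 in vehicle, nothing is read from the sign. The largest shifts came with the pseudocount. At 0.1 the log2 change was -0.98 for Notch3, 0.70 for Jag2, 0.88 for Hey1 and 1.54 for Heyl, and at 5 it was -0.21, 0.05, 0.12 and 0.08. Over all alternatives Notch1 ranged from -0.48 to -0.18 and Notch2 from -0.78 to -0.40. The number of kept genes past the threshold was 344 with no filter on low values and 337 to 879 when 1 library was left out. For the other pathway genes, the count with higher levels in R was 1 with the stricter filter, equal medians or quantile normalization, and 0 to 2 when 1 library was left out. The count with lower levels was 0 with no filter, 3 with the stricter filter or centred on like length, and 0 to 2 when 1 library was left out. With the replicate block the counts were 2 higher (Pdgfrb, adjusted p = 0.0238, and Numbl, 0.0382) and 0 lower (Kat2b, 0.0564). In their deviations from the group means over kept genes, same-numbered libraries correlated at 0.142, -0.0117 and -0.0309. Libraries of unlike number correlated at -0.139 to 0.137. The labels do not say whether the numbers pair the libraries, and these values cannot settle it. Leaving out 1 library turned the direction of genes near no change, with log2 changes of -0.56 to 0.13 for Ccn3, -0.034 to 0.085 for Hes6, -0.012 to 0.14 for Cdkn1a, -0.12 to 0.069 for Psenen, -0.11 to 0.0074 for Kat2a and -0.047 to 0.099 for Epn1, and equal medians gave Psenen 0.020. The cause was not tested. Depth limits Nrarp, Heyl, Jag2 and Hey1.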
